A study of Mus musculus with 9 samples.

Results

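Store-operated calcium entry and calcium pumping were examined through 10 genes: the endoplasmic reticulum calcium sensors Stim1 and Stim2, the plasma membrane channel subunits Orai1, Orai2 and Orai3, the inositol trisphosphate (IP3) receptors Itpr1, Itpr2 and Itpr3, and the pumps Atp2a2 and Atp2b1. They were chosen by symbol from 19094 genes listed in at least 1 sample. All 10 were found, and all 10 passed the filter on low counts together with 13144 other genes.

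In this pathway a signal at the cell surface activates phospholipase C, which makes IP3, and IP3 opens receptors that release calcium from the endoplasmic reticulum. When the store empties, STIM proteins in its membrane sense the loss, gather where the reticulum touches the plasma membrane and open ORAI channels, through which calcium enters. SERCA pumps such as the product of Atp2a2 refill the store, and plasma membrane pumps such as the product of Atp2b1 expel calcium from the cell. Calcium signals of this kind are known to act on preadipocytes as they become fat cells.

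The libraries came from 3T3-L1, a mouse embryonic fibroblast line whose confluent preadipocytes turn into lipid-filled adipocytes under a hormone cocktail. Day 0 samples were preadipocytes before the cocktail, which consists of dexamethasone, IBMX and insulin. Day 4 samples had received the cocktail for 2 days and then medium with insulin only until collection, and day 8 samples had stayed in insulin medium for 4 days more. Each day had 3 samples, with 18216114 to 20452144 expected counts each. All days used the same line with no other treatment, no arm was kept without the cocktail, and so time in culture and the cocktail cannot be told apart. Cells of a stage were pooled and nothing says that the replicates came from separate cultures, so the p-values measure only the spread between these samples, which may be technical. The comparison of day 4 with day 0 is called the early phase, day 8 with day 4 the late phase and day 8 with day 0 the whole process, and the comparisons share samples.

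Adipocyte markers rose from day 0, while preadipocyte and fibroblast markers went both ways. The summed FPKM (a level scaled to transcript length and sequencing depth) of 8 adipocyte markers averaged 22.9 ± 1.64 (SD, n = 3) in day 0 samples, 6089 ± 1153 in day 4 samples and 7798 ± 301.9 in day 8 samples, with Fabp4 the most abundant at days 4 and 8 and Pparg at day 0, and all 8 rose in the early phase (edgeR adjusted p under 0.05). The 7 preadipocyte and fibroblast markers summed to 6417 ± 120.5, 4035 ± 191.9 and 4783 ± 58.6 FPKM, with Vim the most abundant at days 0 and 4 and Col1a1 at day 8, so that the sum was lowest at day 4. By the same test, 6 of these 7 fell and Pdgfra rose in the early phase, and 5 rose and 2 fell in the late phase. Over the whole process 3 rose (Pdgfra, Pdgfrb, Col1a1), 3 fell (Dlk1, Vim, Fn1) and Thy1 did not pass the test. Such calls were common, as 35.5% of all genes rose and 33.7% fell in the early phase. The shares were 22.5% and 22.7% in the late phase and 34.8% and 36.2% over the whole process. Dorsal root ganglion tissue is named in the extraction label, and the 9 sensory neuron markers summed to 0.963, 1.75 and 1.95 FPKM at days 0, 4 and 8. None of those 9 markers averaged 1 FPKM or more over all samples. Calca was at 0 in all day 0 and day 4 samples and at 0.15 to 0.3 FPKM at day 8. The most abundant over all samples, Snap25, ranged from 0 to 1.17 FPKM. It rose in the early phase (log2 fold change 5.45 ± 0.47, edgeR adjusted p = 3.26e-08), and so did Syp (1.23 ± 0.37, edgeR adjusted p = 0.00731). Prph and Tubb3, which were not tested, averaged 0.367 and 0.307 FPKM at day 0 and 0.047 and 0.06 at day 4. Skeletal muscle, macrophage and endothelial markers summed to at most 2.77 FPKM in every sample, and among these only Cd68 averaged 1 FPKM or more over all samples. In bulk RNA, fewer cells of a type and less RNA per cell cannot be told apart.

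The 10 genes did not move as one. In the early phase 4 rose (Stim1, Orai3, Itpr1, Atp2a2), 5 fell (Stim2, Orai2, Itpr2, Itpr3, Atp2b1) and Orai1 did not pass the test, which was edgeR's quasi-likelihood F-test with a Benjamini-Hochberg adjusted p under 0.05. Of all genes tested, 35.5% rose and 33.7% fell in that phase by the same test. Only Stim1 rose and only Itpr3 fell by more than 2-fold, against 9.77% and 7.98% of all genes. In the late phase 2 rose (Stim2, Itpr2), 5 fell (Stim1, Orai2, Itpr1, Itpr3, Atp2b1) and 3 did not pass the test, where 22.5% of all genes rose and 22.7% fell. None rose and only Stim1 fell by more than 2-fold in the late phase, against 4.24% and 2.81% of all genes. Over the whole process 3 rose (Stim1, Orai3, Itpr1), 4 fell (Orai2, Itpr2, Itpr3, Atp2b1) and 3 did not pass the test, where 34.8% of all genes rose and 36.2% fell. None rose by more than 2-fold over the whole process, against 10.3% of all genes, and Orai2 and Itpr3 fell by more than 2-fold, against 7.7%.

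The median log2 fold change of the 10 genes was -0.13 in the early phase, -0.21 in the late phase and 0.00 over the whole process, beside 0.02, -0.01 and -0.02 for all genes tested. The median size of the change, without its sign, was 0.49, 0.41 and 0.43 for the 10 genes and 0.37, 0.20 and 0.39 for all genes.

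**Figure D1:**
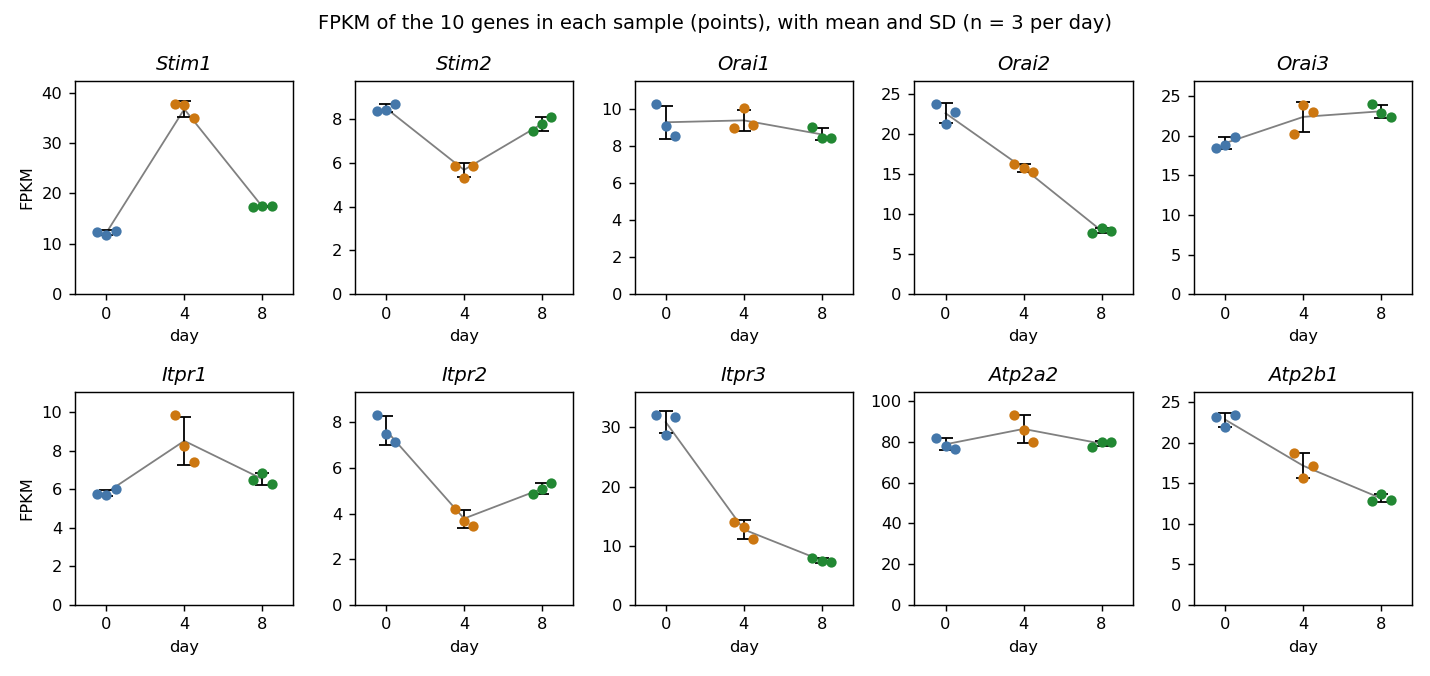
FPKM on the vertical axis, starting at 0, against day of differentiation for each of the 10 genes. Points are single samples, grey lines join the day means and bars are the SD of 3 samples. Stim1 peaks at day 4 near 36.7 FPKM, Orai2 and Itpr3 step down at each day, and Orai1 stays between 8.41 and 10.26 FPKM.

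Stim1 (gene ID 20866), the main sensor of store depletion, had the largest early change of the 10 genes. Its FPKM was 12.33, 11.63 and 12.51 at day 0, 37.75, 37.47 and 34.92 at day 4, and 17.22, 17.46 and 17.42 at day 8. No day overlapped another, and every day 8 sample lay between the other days. The share of all genes whose days separate in this way is not given here, nor for the genes below. The early rise was 3.16-fold (log2 fold change 1.66 ± 0.05 SE, edgeR adjusted p = 1.09e-13) and the late fall 2.05-fold (-1.04 ± 0.05, edgeR adjusted p = 1.37e-10). At day 8 the level was still 1.54-fold that of day 0 (0.63 ± 0.05, edgeR adjusted p = 2.65e-08). Of all genes tested, 91.1% changed less than Stim1 in the early phase and 92.9% less in the late phase. The late fall stood close to the 2-fold mark, and its log2 fold change was -0.99 without day 4 replicate 2.

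Stim2 (116873), which senses smaller losses from the store and helps to keep resting calcium, ran the other way. Its FPKM was 8.37, 8.41 and 8.69 at day 0, 5.85, 5.31 and 5.86 at day 4, and 7.46, 7.78 and 8.09 at day 8. All day 4 samples were below the samples of both other days. The level fell 1.43-fold in the early phase (log2 fold change -0.52 ± 0.06, edgeR adjusted p = 1.52e-06) and rose 1.42-fold in the late phase (0.50 ± 0.06, edgeR adjusted p = 6.53e-06). Over the whole process the log2 fold change was -0.01 ± 0.06 (edgeR adjusted p = 0.836). Day 8 lay below day 0 in FPKM, while the TMM-normalized counts of these days overlapped. The Stim1 to Stim2 ratio of FPKM went from 1.43 ± 0.046 to 6.49 ± 0.550 at day 4 and back to 2.24 ± 0.078.

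Orai1 (109305), the classical pore subunit of the store-operated channel, showed no change that passed the test. Its FPKM was 10.26, 9.04 and 8.5 at day 0, 8.98, 10.01 and 9.12 at day 4, and 8.99, 8.44 and 8.41 at day 8. The 3 days overlapped. The log2 fold changes were 0.08 ± 0.08, -0.08 ± 0.09 and 0.01 ± 0.09 in the early phase, the late phase and the whole process (edgeR adjusted p = 0.398, 0.490 and 0.956). It also had the fewest reads of the 10 genes, with 307 to 391 expected counts per sample. Exons of the antisense gene Gm2479 overlap those of Orai1, the use of strand in counting is not given in the sources used here, and reads from such a pair cannot be told apart.

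Orai2 (269717), a pore subunit that can join Orai1 in mixed channels, fell in both phases. Its FPKM was 23.73, 21.28 and 22.67 at day 0, 16.22, 15.68 and 15.2 at day 4, and 7.58, 8.21 and 7.92 at day 8. No day overlapped another. The fall was 1.37-fold in the early phase (log2 fold change -0.46 ± 0.06, edgeR adjusted p = 2.16e-06), 1.93-fold in the late phase (-0.95 ± 0.06, edgeR adjusted p = 3.25e-09) and 2.64-fold over the whole process (-1.40 ± 0.06, edgeR adjusted p = 4.48e-12). Of all genes tested, 8.38% changed as much or more from day 4 to day 8.

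Orai3 (269999), the subunit found only in mammals, rose modestly over the whole process. Its FPKM was 18.5, 18.88 and 19.87 at day 0, 20.25, 23.91 and 23.02 at day 4, and 24.04, 22.86 and 22.42 at day 8. Day 0 lay below both other days, and days 4 and 8 overlapped. The early rise was 1.23-fold (log2 fold change 0.30 ± 0.07, edgeR adjusted p = 7.57e-04), the late value was 0.09 ± 0.06 (edgeR adjusted p = 0.273) and the rise over the whole process was 1.31-fold (0.39 ± 0.07, edgeR adjusted p = 6.05e-05). The Orai3 to Orai2 ratio of FPKM moved from 0.848 ± 0.059 at day 0 through 1.43 ± 0.157 to 2.93 ± 0.211 at day 8.

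Itpr3 (16440), the IP3 receptor subtype common in non-neuronal cells, had the largest fall of the 10 genes. Its FPKM was 32.17, 28.79 and 31.7 at day 0, 14.06, 13.08 and 11.06 at day 4, and 7.88, 7.38 and 7.22 at day 8. No day overlapped another. The fall was 2.32-fold in the early phase (log2 fold change -1.21 ± 0.07, edgeR adjusted p = 3.64e-10), 1.65-fold in the late phase (-0.72 ± 0.08, edgeR adjusted p = 1.21e-06) and 3.82-fold over the whole process (-1.93 ± 0.08, edgeR adjusted p = 1.73e-12). Over the whole process 92.8% of all genes tested changed less. The antisense gene Itpr3os overlaps exons of Itpr3, with the same limit as for Orai1. Mir7677 overlaps them on the same strand, so the use of strand in counting would not separate its reads.

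Itpr1 (16438), the subtype best known from neurons, was highest at day 4. Its FPKM was 5.76, 5.7 and 5.99 at day 0, 9.88, 8.23 and 7.43 at day 4, and 6.5, 6.84 and 6.26 at day 8. No day overlapped another, and the day 4 samples were spread widest. The early rise was 1.53-fold (log2 fold change 0.62 ± 0.08, edgeR adjusted p = 3.94e-06), the late fall 1.26-fold (-0.34 ± 0.08, edgeR adjusted p = 0.0025) and the remaining rise 1.21-fold (0.28 ± 0.08, edgeR adjusted p = 0.00576). The last of these did not pass the test with library size alone as the scaling (log2 fold change 0.17, edgeR adjusted p = 0.0702). It also missed the threshold with limma on log2(FPKM + 0.1) and log2(FPKM + 1) (0.16 and 0.14, limma adjusted p = 0.135 and 0.146). Antisense exons (Gm44040 and Gm44101) overlap this gene as well.

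Itpr2 (16439), a subtype with high sensitivity to IP3, was lowest at day 4. Its FPKM was 8.34, 7.47 and 7.13 at day 0, 4.22, 3.67 and 3.45 at day 4, and 4.86, 5.07 and 5.33 at day 8. No day overlapped another, and day 8 lay between the other days. The early fall was 1.94-fold (log2 fold change -0.96 ± 0.08, edgeR adjusted p = 1.23e-08), the late rise 1.39-fold (0.48 ± 0.08, edgeR adjusted p = 1.18e-04) and the fall over the whole process 1.39-fold (-0.48 ± 0.07, edgeR adjusted p = 2.73e-05). The early fall stood just inside 2-fold, and its log2 fold change was -1.004 without day 0 replicate 3 and -1.04 without day 4 replicate 1, both past that mark.

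Atp2a2 (11938), the SERCA2 pump that returns calcium to the endoplasmic reticulum, was the most abundant of the 10 genes on every day and changed little. Its FPKM was 82.09, 77.85 and 76.41 at day 0, 93.38, 85.73 and 79.9 at day 4, and 77.6, 79.89 and 79.8 at day 8. In FPKM day 0 overlapped both other days, whereas in TMM-normalized counts day 4 and day 8 lay above day 0. The early rise was 1.16-fold (log2 fold change 0.22 ± 0.06, edgeR adjusted p = 0.00305). The late value was -0.09 ± 0.06 (edgeR adjusted p = 0.206) and the whole-process value 0.13 ± 0.06 (edgeR adjusted p = 0.0605). The latter passed the test under 9 alternatives, with adjusted p from 0.0104 to 0.0483 and log2 fold changes up to 0.16, so its call depends on the settings. Among the 9 were the fits without day 0 replicate 1, day 4 replicate 1 and day 4 replicate 3 (edgeR adjusted p = 0.0357, 0.0256 and 0.0221). The late value passed without day 4 replicate 3 as well (edgeR adjusted p = 0.0288). Of its 50-base stretches, 3.31% also occur in transcripts of other genes, the highest share among the 10 genes, and the antisense gene Gm43361 overlaps its exons.

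Atp2b1 (67972), the widespread plasma membrane pump PMCA1, fell at a steady pace. Its FPKM was 23.17, 21.9 and 23.49 at day 0, 18.72, 15.66 and 17.11 at day 4, and 12.77, 13.69 and 12.95 at day 8. No day overlapped another. The fall was 1.27-fold in the early phase (log2 fold change -0.35 ± 0.06, edgeR adjusted p = 7.60e-05), 1.27-fold in the late phase (-0.34 ± 0.06, edgeR adjusted p = 2.65e-04) and 1.61-fold over the whole process (-0.69 ± 0.06, edgeR adjusted p = 3.70e-08). The Atp2a2 to Atp2b1 ratio of FPKM went from 3.45 ± 0.171 through 5.04 ± 0.405 to 6.02 ± 0.169.

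**Figure D2:**
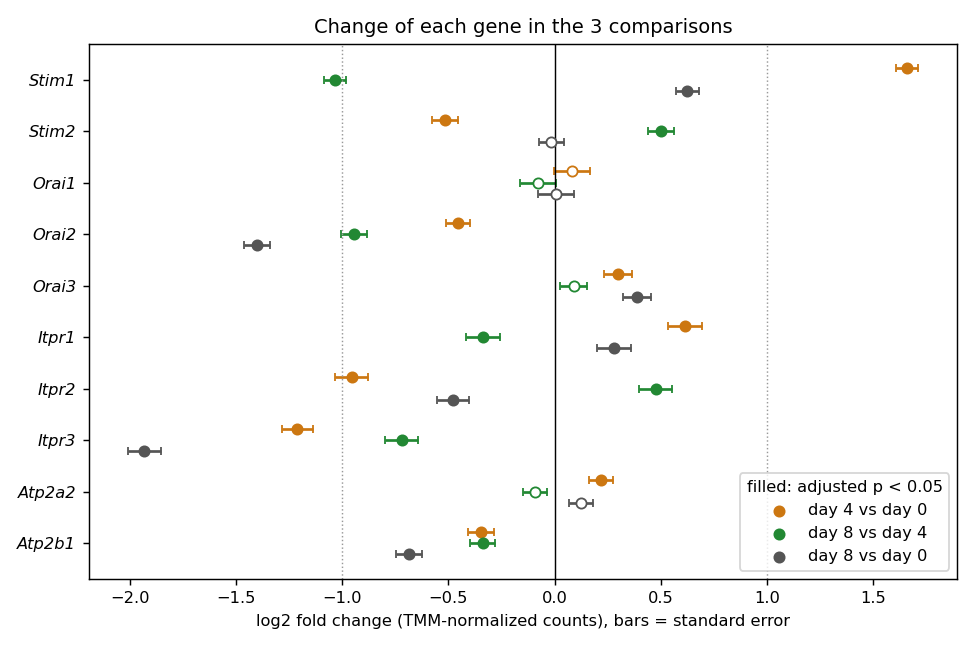
Log2 fold change of each gene from TMM-normalized counts (horizontal axis) in the early phase, the late phase and the whole process, with standard errors as bars. Filled points have an edgeR adjusted p under 0.05 and dotted lines mark 2-fold. Stim1 lies at 1.66 early and -1.04 late, Itpr3 reaches -1.93 over the whole process, and the open points of Orai1 lie near 0.

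Whether the late step differed from the early step was tested as a contrast of log2 changes, late minus early, in the same model, in which day 4 enters both steps. It passed for 7 of the 10 genes, where 56.6% of all genes tested passed. The contrast was -2.70 ± 0.08 for Stim1 (edgeR adjusted p = 2.57e-13) and 1.43 ± 0.14 for Itpr2 (edgeR adjusted p = 2.07e-07). It was 1.02 ± 0.11 for Stim2 (edgeR adjusted p = 7.48e-07) and -0.95 ± 0.14 for Itpr1 (edgeR adjusted p = 1.79e-05). For these 4 genes the sign of the change turned at day 4. Orai2 fell faster in the late phase (-0.49 ± 0.10, edgeR adjusted p = 5.85e-04) and Itpr3 fell faster in the early phase (0.49 ± 0.13, edgeR adjusted p = 0.00429). The contrast for Atp2a2 was -0.31 ± 0.10 (edgeR adjusted p = 0.0137). It missed the threshold for Orai1, Orai3 and Atp2b1 (edgeR adjusted p = 0.372, 0.128 and 0.956), and for Atp2b1 the contrast was 0.01 ± 0.10. Without day 4 replicate 2 the count was 6 in place of 7.

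The promoters of Stim1, Orai2 and Itpr3 are shown because these genes passed 2-fold in at least 1 comparison, and because Orai2 and Itpr3 fell in both phases, though at a different pace, while Stim1 rose and then fell. Each sequence is the 250 bases before the annotated start, read 5′ to 3′ on the gene's strand from RefSeq on GRCm38.p6, at chr7:102267569-102267818 (plus strand) for Stim1, chr5:136170657-136170906 (minus strand) for Orai2 and chr17:27057054-27057303 (plus strand) for Itpr3. Capitals mark GC boxes, searched as GGGCGG on both strands.
Stim1: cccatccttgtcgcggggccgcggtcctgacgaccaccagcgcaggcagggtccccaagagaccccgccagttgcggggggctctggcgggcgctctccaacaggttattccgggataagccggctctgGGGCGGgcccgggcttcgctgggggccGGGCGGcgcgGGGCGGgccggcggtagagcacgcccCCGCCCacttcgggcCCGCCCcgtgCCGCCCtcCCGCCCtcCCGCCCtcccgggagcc
Orai2: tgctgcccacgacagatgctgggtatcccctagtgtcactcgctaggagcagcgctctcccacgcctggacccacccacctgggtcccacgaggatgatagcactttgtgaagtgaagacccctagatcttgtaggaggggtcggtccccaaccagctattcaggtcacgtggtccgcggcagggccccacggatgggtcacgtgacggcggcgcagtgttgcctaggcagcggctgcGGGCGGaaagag
Itpr3: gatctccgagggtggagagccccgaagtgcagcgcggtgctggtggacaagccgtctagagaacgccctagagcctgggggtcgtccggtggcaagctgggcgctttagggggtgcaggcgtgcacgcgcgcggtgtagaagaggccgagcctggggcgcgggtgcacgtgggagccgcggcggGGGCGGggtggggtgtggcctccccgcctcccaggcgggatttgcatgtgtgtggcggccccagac
The Stim1 window held 8 GC boxes at 78.4% G and C, against 1 box at 63.6% for Orai2 and 1 box at 72.0% for Itpr3. A GC box occurred in 32.7% of 32851 RefSeq promoter windows of the same length. RefSeq promoters were matched for 8 of the 10 genes, all but Itpr1 and Atp2a2. All 9 windows of those 8 held at least 1 GC box. Boxes numbered 4 and 3 in the windows of Atp2b1, 4 for Itpr2, 3 each for Stim2 and Orai1, and 1 for Orai3. A link between the number of boxes and the direction of change was not tested. The CCAAT box (CCAAT), present in 33.8% of all windows, was found for Stim2, Orai1, Orai3 and Itpr2. Neither the C/EBP letters TTGCNNAA (9.56% of all windows) nor the cyclic AMP response element TGACGTCA (1.55%) was found in any of the 9 windows. These matches describe the letters only and no binding was measured.

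The order of the genes by mean FPKM changed between days. At day 0 it ran Atp2a2, Itpr3, Atp2b1, Orai2, Orai3, Stim1, Orai1, Stim2, Itpr2 and Itpr1, and the neighbours Atp2b1 and Orai2, and Orai1 and Stim2, overlapped in their samples. At day 4 Stim1 had moved to the place after Atp2a2, followed by Orai3, Atp2b1, Orai2, Itpr3, Orai1, Itpr1, Stim2 and Itpr2, with overlap of Atp2b1 with Orai2 and of Orai1 with Itpr1. At day 8 the order was Atp2a2, Orai3, Stim1, Atp2b1, Orai1, Orai2, Stim2, Itpr3, Itpr1 and Itpr2, and Orai2, Stim2 and Itpr3 overlapped in turn. Itpr3 thus stood directly after Atp2a2 at day 0 and among the 3 lowest genes at day 8.

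Within families, the share of each paralog in the summed FPKM moved with the day. Stim1 held 58.9% ± 0.775 of the Stim sum at day 0, 86.6% ± 0.979 at day 4 and 69.1% ± 0.748 at day 8, while the sum itself was 20.6, 42.4 and 25.1 FPKM. Orai2 held 44.3% ± 0.984, 33.1% ± 2.22 and 20.0% ± 1.14 of the Orai sum, and Orai3 held 37.5% ± 1.99, 47.1% ± 2.24 and 58.3% ± 0.773. The Orai sum was 50.9 ± 1.65, 47.5 ± 2.08 and 39.6 ± 0.935 FPKM. Itpr3 held 69.6% ± 1.06, 50.9% ± 1.29 and 39.2% ± 1.52 of the Itpr sum, and Itpr1 held 13.1% ± 0.602, 34.0% ± 1.07 and 34.2% ± 1.14. The Itpr sum fell by sample means from 44.4 ± 2.19 to 25.0 ± 3.11 and 19.1 ± 0.264 FPKM, with no test on the sum. Day 0, day 4 and day 8 did not overlap in the shares of Stim1, Stim2, Orai2, Orai3, Itpr2 or Itpr3. Shares of Orai1 overlapped between days 0 and 4, and shares of Itpr1 between days 4 and 8. How often other gene families separate by day in this way is not given here.

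The pump families differed from each other. Atp2a2 held 97.1% ± 0.709, 98.7% ± 0.138 and 97.6% ± 0.818 of the Atp2a sum, so SERCA transcripts came almost wholly from this gene at each stage. Atp2b1 held 91.1% ± 0.682 of the Atp2b sum at day 0, 65.5% ± 0.940 at day 4 and 62.2% ± 0.869 at day 8. Most of the rest came from Atp2b4, the plasma membrane pump PMCA4, with 8.49% ± 0.747, 34.4% ± 0.930 and 37.7% ± 0.925. The Atp2b sum was 25.1 ± 0.823, 26.2 ± 1.96 and 21.1 ± 0.776 FPKM.

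**Figure D3:**
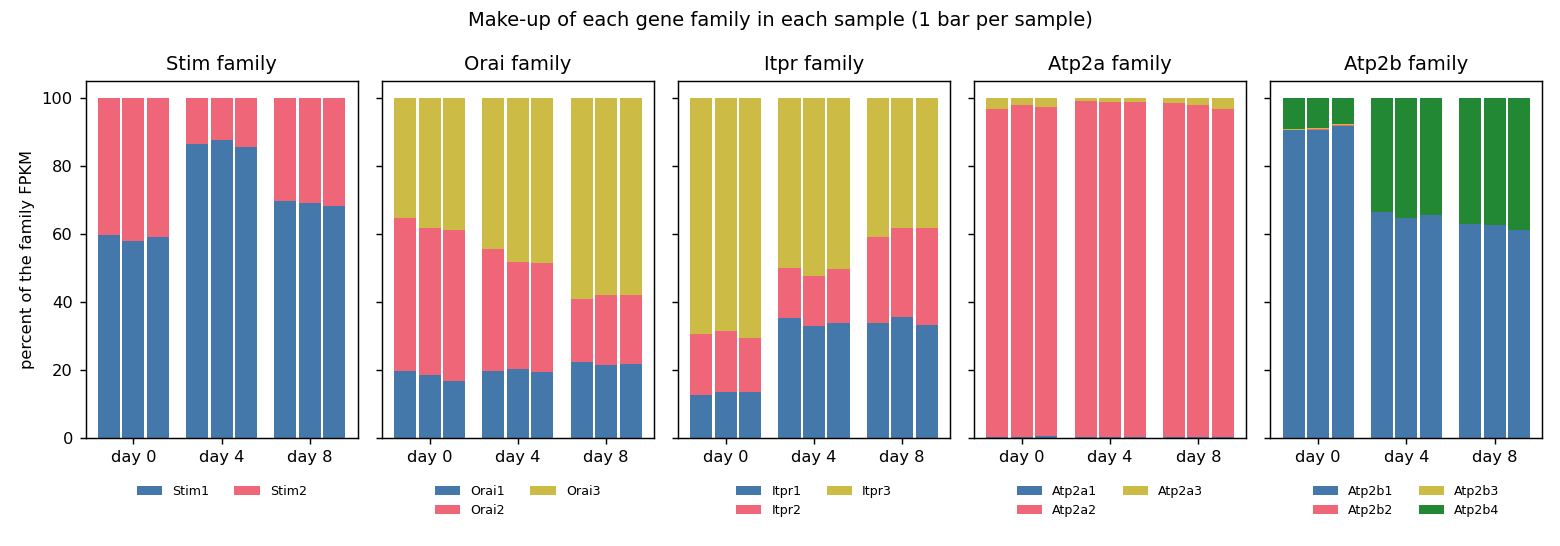
Percent of the summed FPKM of each family (vertical axis) held by each paralog, with 1 bar per sample in 3 groups by day. Stim1 widens at day 4 to 86.6% on average, Orai3 and Itpr1 gain on Orai2 and Itpr3, and Atp2b4 grows from 8.49% at day 0 to 34.4% at day 4.

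Samples of day 4 differed among themselves more than those of day 8 for several of the 10 genes. Stim1, Itpr1, Itpr2, Itpr3, Orai2 and Atp2a2 were all highest in day 4 replicate 1 and lowest in replicate 3, as in the Itpr1 values of 9.88, 8.23 and 7.43 FPKM. The adipocyte marker sum ran the other way in these samples, at 4953, 6054 and 7258 FPKM. The rest of the 10 genes followed neither order, with Orai1 and Orai3 lowest in day 4 replicate 1 and Stim2 and Atp2b1 lowest in replicate 2. The part of the marker levels in the spread was not tested.

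Genes with profiles most like the member that moved most in each class were taken from 6188 genes whose log2 CPM averaged 5 or more, by Pearson's r of log2 CPM over 9 samples. The 9 samples are 3 clusters by day, so the values are descriptions. Stim1 was most like Bmf (r = 0.999), Idh2 (0.999), the mitochondrial NADP-dependent isocitrate dehydrogenase, and Per1 (0.997), a clock gene. Orai2 was most like Esyt2 (0.997), an extended synaptotagmin that tethers the endoplasmic reticulum to the plasma membrane, Igf1r (0.996), the IGF1 receptor, and Susd6 (0.995). Itpr3 was most like Dcaf7, Crebbp and Exoc1 (each 0.997). Atp2b1 was most like Camk2d (0.992), a calcium/calmodulin-dependent kinase, Pikfyve (0.992), a lipid kinase, and Pign (0.990).

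Around the 10 genes, 12 lists of calcium-handling genes named 116 others, of which 110 were in the files and 86 were tested. In the early phase 35 of the 86 rose and 30 fell, in the late phase 25 rose and 16 fell, and over the whole process 35 rose and 23 fell, by the same edgeR test. These are 40.7% and 34.9% of the 86 early, 29.1% and 18.6% late and 40.7% and 26.7% over the whole process, beside 35.5% and 33.7%, 22.5% and 22.7%, and 34.8% and 36.2% of all genes tested. Past 2-fold, 11 rose and 9 fell early (12.8% and 10.5%, beside 9.77% and 7.98% of all genes), 7 rose and 2 fell late (8.14% and 2.33%, beside 4.24% and 2.81%), and 11 rose and 7 fell over the whole process (12.8% and 8.14%, beside 10.3% and 7.7%). Most of these shares lie near those of all genes. The median log2 fold changes of the 86 were 0.03, -0.0028 and 0.05, beside 0.02, -0.01 and -0.02 for all genes. Each list below holds 13 tested genes or fewer, its counts are to be read beside these shares of all genes, and no list was tested as a set.

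Of 10 tested regulators of the STIM and ORAI machinery, 5 rose and 2 fell in the early phase (35.5% and 33.7% of all genes), 3 rose and 3 fell in the late phase (22.5% and 22.7%), and 5 rose and 1 fell over the whole process (34.8% and 36.2%). The most abundant over all samples, Saraf, which switches store-operated entry off, had 67.3, 80.6 and 86.4 FPKM at days 0, 4 and 8 and rose in both phases (log2 fold change 0.33 ± 0.05 and 0.15 ± 0.05, edgeR adjusted p = 1.60e-05 and 0.0205). Of 2 tested TRPC channels, 1 rose early, both fell late and 1 rose over the whole process. Trpc1 was highest at day 4, as Stim1 was, with 1.60, 3.88 and 2.40 FPKM (early 1.34 ± 0.10, edgeR adjusted p = 4.83e-09, and late -0.64 ± 0.09, edgeR adjusted p = 4.15e-05). Trpc6, at 0.197 FPKM on day 0, did not pass the test early (0.35 ± 0.36, edgeR adjusted p = 0.3995) and fell late (-1.14 ± 0.41, edgeR adjusted p = 0.0324). The ryanodine receptors, the other release channels of the store, had at most 0.033 FPKM on average on any day, and none of the 3 was tested.

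Among 11 tested partners of the IP3 receptors, 4 rose and 5 fell early (36.4% and 45.5%, beside 35.5% and 33.7% of all genes), 2 rose and 4 fell late (18.2% and 36.4%, beside 22.5% and 22.7%), and 3 rose and 7 fell over the whole process (27.3% and 63.6%, beside 34.8% and 36.2%). Itprip, an inhibitor of IP3 receptor signalling, fell in the early phase from 13.3 to 3.58 FPKM (log2 fold change -1.82 ± 0.09, edgeR adjusted p = 1.60e-11). Ahcyl2, a relative of the IP3 receptor binding protein IRBIT, rose from 6.91 to 20.0 FPKM in the early phase (1.58 ± 0.05, edgeR adjusted p = 9.65e-14). Mrvi1, which couples cyclic GMP signalling to the IP3 receptor, rose in both phases from 0.683 through 1.39 to 2.95 FPKM (1.07 ± 0.13 and 1.13 ± 0.11, edgeR adjusted p = 1.43e-06 and 2.84e-07). Ahcyl1, the most abundant partner over all samples though not at day 4, had 55.8, 47.6 and 46.1 FPKM.

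On the side of IP3 supply, 4 of 8 tested phospholipase C genes rose and 2 fell early, 4 rose and 2 fell late, and 2 rose and 1 fell over the whole process, beside 35.5% and 33.7%, 22.5% and 22.7%, and 34.8% and 36.2% of all genes. Plcb1 rose from 4.14 to 7.76 FPKM in the early phase (log2 fold change 0.97 ± 0.06, edgeR adjusted p = 1.18e-09), and Plcg1, the most abundant, had 31.5, 33.7 and 26.8 FPKM. Plcb2 had 5, 2 and 9 expected counts at day 0, 24, 31 and 36 at day 4, and 131, 141 and 148 at day 8, and rose in both phases (edgeR adjusted p = 8.08e-06 and 1.19e-07). Of 4 tested genes that remove IP3, 2 rose and none fell early, 1 rose and none fell late, and 2 rose and 1 fell over the whole process. Inpp5a, the IP3 5-phosphatase and the most abundant of them, rose in both phases through 27.2, 39.1 and 46.6 FPKM (0.59 ± 0.04 and 0.30 ± 0.04, edgeR adjusted p = 4.69e-09 and 3.37e-05). Itpka, an IP3 3-kinase, had 4, 2 and 11 expected counts at day 0 and 42, 62 and 83 at day 4 (edgeR adjusted p = 1.06e-06).

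Of 4 other calcium pumps tested, Atp2b4 rose and 3 fell in the early phase, 1 rose and none fell in the late phase, and 1 rose and 1 fell over the whole process, beside 35.5% and 33.7%, 22.5% and 22.7%, and 34.8% and 36.2% of all genes. Atp2b4 had 2.33, 2.1 and 1.96 FPKM at day 0, 9.42, 8.56 and 8.99 at day 4, and 7.52, 8.18 and 8.2 at day 8, so day 0 lay far below the rest (early log2 fold change 2.14 ± 0.07, edgeR adjusted p = 2.24e-13). Atp2a3, the SERCA3 pump, fell early and rose late (-1.06 ± 0.25 and 0.97 ± 0.25, edgeR adjusted p = 0.00141 and 0.00547). Its samples were low and spread widely at days 0 and 8. They had 2.87, 1.52 and 1.98 FPKM at day 0, 0.96, 1.02 and 0.93 at day 4, and 1.22, 1.73 and 2.59 at day 8. Atp2c1, the Golgi pump, had 12.7, 9.99 and 10.4 FPKM. Of 9 tested pump partners and store proteins, 5 rose and 2 fell early, 2 rose and 1 fell late, and 5 rose and 2 fell over the whole process. Calr, the calcium buffer of the endoplasmic reticulum, followed a day 4 peak of 582, 1168 and 894 FPKM (early 1.07 ± 0.04, edgeR adjusted p = 3.35e-12, and late -0.34 ± 0.04, edgeR adjusted p = 1.09e-05). Bsg, a partner of the plasma membrane pumps, rose through 328, 462 and 1025 FPKM (0.56 ± 0.08 and 1.19 ± 0.08, edgeR adjusted p = 1.14e-05 and 6.44e-09). Phospholamban (Pln), a SERCA inhibitor, had about 0.013 FPKM at day 0.

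Of 4 tested sodium-calcium exchangers, 2 rose and 1 fell early, 1 rose and none fell late, and 2 rose and none fell over the whole process, beside the same shares of all genes. Slc8a1, the plasma membrane exchanger NCX1, dipped at day 4 with 6.87, 2.37 and 7.03 FPKM (early log2 fold change -1.47 ± 0.05, edgeR adjusted p = 7.92e-13, and late 1.61 ± 0.05, edgeR adjusted p = 1.64e-12). Slc8b1, the mitochondrial exchanger, had 7.76, 10.6 and 10.1 FPKM. Of 11 tested genes of mitochondrial uptake, 4 rose and 3 fell early (36.4% and 27.3%, beside 35.5% and 33.7% of all genes), 3 rose and none fell late (beside 22.5% and 22.7%), and 6 rose and 3 fell over the whole process (54.5% and 27.3%, beside 34.8% and 36.2%). Mcur1, a uniporter regulator, rose over the whole process (log2 fold change 1.003 ± 0.06, edgeR adjusted p = 4.41e-10), and Vdac1, the abundant outer membrane channel, had 122, 158 and 158 FPKM. Ccdc109b, a subunit that dampens the uniporter, had 76, 73 and 107 expected counts at day 0 and 11, 9 and 13 at day 4 (early -2.90 ± 0.31, edgeR adjusted p = 3.95e-07, and whole process -2.35 ± 0.29, edgeR adjusted p = 2.01e-06).

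Downstream of calcium, 5 of 13 tested calmodulin, calcineurin and NFAT genes rose and 7 fell early (38.5% and 53.8%, beside 35.5% and 33.7% of all genes), 4 rose and 2 fell late (30.8% and 15.4%, beside 22.5% and 22.7%), and 4 rose and 3 fell over the whole process (30.8% and 23.1%, beside 34.8% and 36.2%). Nfatc1, a calcineurin-driven transcription factor, fell in both phases through 8.52, 5.04 and 3.58 FPKM (log2 fold change -0.70 ± 0.07 and -0.46 ± 0.08, edgeR adjusted p = 3.41e-07 and 2.03e-04), and Calm2 was the most abundant of the list over all samples, while Calm3 had the higher mean at days 4 and 8. Of 10 tested calmodulin-dependent kinases, 2 rose and 5 fell early (beside 35.5% and 33.7% of all genes), 4 rose and 2 fell late (beside 22.5% and 22.7%), and 4 rose and 4 fell over the whole process (beside 34.8% and 36.2%). Past 2-fold, 2 rose and 3 fell early (beside 9.77% and 7.98% of all genes), 3 rose and none fell late (beside 4.24% and 2.81%), and 3 rose and 2 fell over the whole process (beside 10.3% and 7.7%). Camkk1 fell from 4.99 to 1.92 FPKM early (-1.31 ± 0.09, edgeR adjusted p = 3.17e-09), and Camk4 rose (1.39 ± 0.26, edgeR adjusted p = 1.64e-04). Camk2a fell early and rose late (-1.02 ± 0.19 and 1.20 ± 0.19, edgeR adjusted p = 1.60e-04 and 7.46e-05). Both Camk4 and Camk2a were low, at 0.087, 0.227 and 0.287 FPKM for Camk4 and 0.873, 0.417 and 0.943 FPKM for Camk2a at days 0, 4 and 8. Camk1g had 3, 0 and 4 expected counts at day 0, 8, 16 and 24 at day 4 and 190, 178 and 159 at day 8, and rose in the late phase (3.49 ± 0.25, edgeR adjusted p = 1.57e-08). Camk1, the most abundant kinase of the list, had 77.3, 74.9 and 81.4 FPKM.

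The other list genes past 2-fold were, apart from Camk1d, of low abundance, with an average log2 CPM near or below 0. Cracr2a, Casq2 and Camk1d fell and Plce1 and Rcan2 rose in the early phase (log2 fold change -1.56, -1.62, -1.02, 1.28 and 1.81). Rcan2 fell and Camk2b rose in the late phase (-2.78 and 1.54). Over the whole process Atp2a1, Casq2 and Camk1d fell and Camk2b rose (-1.35, -1.77, -1.03 and 1.01, all calls by edgeR).

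**Figure D4:**
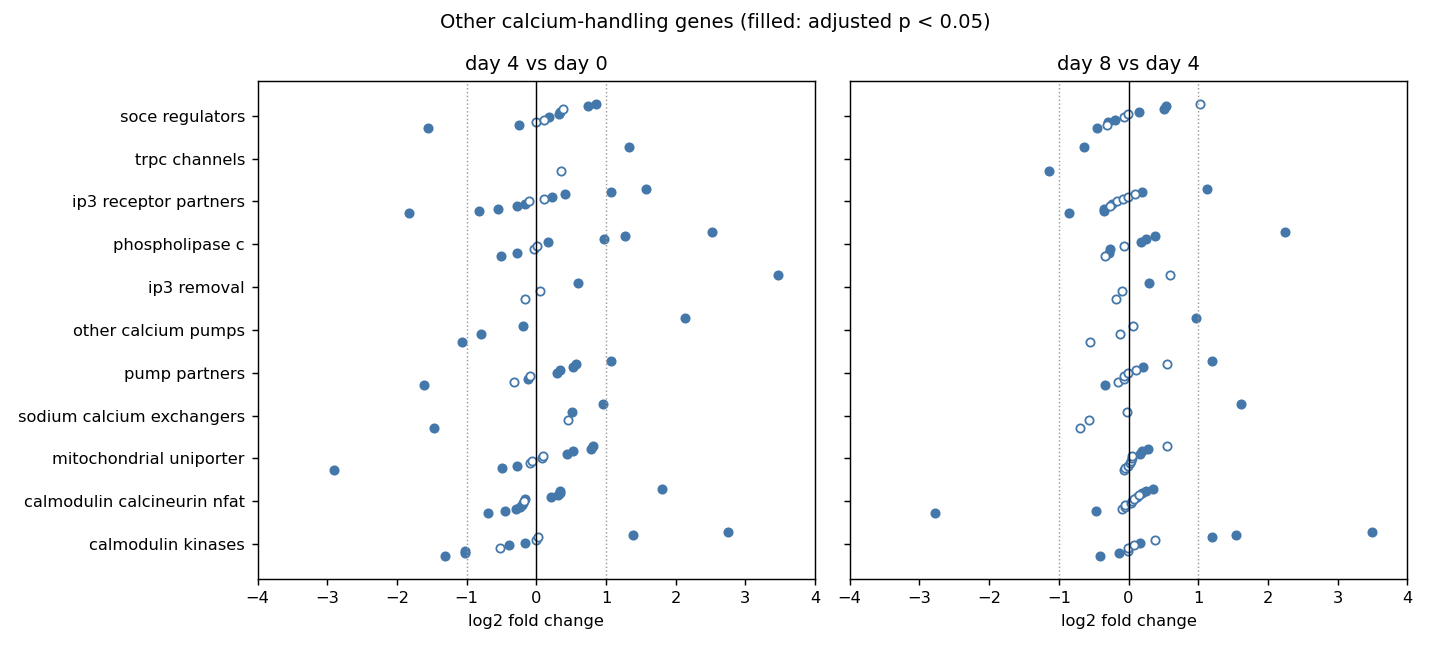
Log2 fold change (horizontal axis) of each tested gene of 11 calcium-handling lists in the early phase (left) and the late phase (right), with filled points at an edgeR adjusted p under 0.05 and dotted lines at 2-fold. The ryanodine receptors are left out since none was tested. Genes spread on both sides of 0 in most lists, with 35 higher and 30 lower early, and fewer points lie past 2-fold in the late phase.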

How the data were processed

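RNA-seq of 9 samples of 3T3-L1 cells, 3 per day, was used. The authors filtered reads, mapped them with HISAT and Bowtie2 and quantified genes with RSEM. The submitters' processing notes name CASAVA 1.4 and Bowtie2. The genome build and the use of strand are not given in the sources used here. The authors deposited RSEM expected counts, which are not normalized (29.8% are not whole), and FPKM, scaled to transcript length and depth. The labels name a BGISEQ library kit while the methods name an Illumina platform.

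Expected counts were rounded and tested with edgeR 4.0.16 in R 4.3.3. Genes were kept by filterByExpr by day (13154 genes), TMM factors were 0.954 to 1.05, and a single quasi-likelihood model held all 9 samples, with the day as its only factor. Standard errors are the size of the log2 fold change divided by the square root of F. P-values were adjusted by Benjamini-Hochberg over all tested genes. The step was tested on simulated data. Samples of a day differed by more than counting noise in every pair. FPKM of symbol-matched rows gave levels and shares. Promoters came from RefSeq (GRCm38.p6) and shared stretches of 50 bases from GENCODE M21 transcripts.

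The 10 genes and all lists were chosen with earlier results of these data known. Beside the 10 genes, the text names the genes of each list over 2-fold whose log2 CPM averaged 1 or more (at most 4 per list), the most abundant gene of each list by its mean over all samples, and the genes most alike. Pln, Calm3, the ryanodine receptors, the marker genes and the list genes over 2-fold that the rule leaves out were named outside this rule, after their values were seen. Alternatives were RLE, upper-quartile and library-size scaling, no filter, at least 10 counts in every sample, DESeq2 1.42.0, edgeR's exact test, limma 3.58.1 on log2(FPKM + 1) and log2(FPKM + 0.1), fits to 2 days at a time, a replicate block, each sample left out in turn, and expected counts for shares.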

Additional observations from a re-analysis of the deposited data

How the results depend on the processing

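No log2 fold change of the 10 genes that passed the test changed sign under any alternative run. The main analysis called 1285 genes up and 1050 down by more than 2-fold in the early phase, 558 and 370 in the late phase and 1356 and 1013 over the whole process. With limma on log2(FPKM + 1) these were 708 and 565, 224 and 136, and 753 and 528, as the pseudocount shrinks low genes. With at least 10 counts in every sample they were 831 up in the early phase and 310 up and 173 down in the late phase, from fewer genes tested. The count of the 10 genes down by more than 2-fold in the early phase was 2 in place of 1 with library size alone and with upper-quartile factors, since Itpr2 passed the mark, and it was 1 to 2 over the 9 fits that left out a sample. The late count was 0 to 1 over those fits, at 0 without day 4 replicate 2, where Stim1 missed the mark. From expected counts, which favour long transcripts, the shares at days 0, 4 and 8 were 51.1%, 82.5% and 62.0% for Stim1, 61.2%, 49.6% and 33.0% for Orai2, 65.2%, 47.2% and 35.1% for Itpr3, and 90.1%, 62.4% and 59.0% for Atp2b1. Orai3 and Orai2 therefore change places in size at a later day by counts than by FPKM, while each of these 4 shares moved in the same direction between days.

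Of the single values, the early rise of Atp2a2 missed the threshold with limma on log2(FPKM + 1) (adjusted p = 0.05001), and the whole-process rise of Itpr1 did so with limma on log2(FPKM + 0.1) and log2(FPKM + 1) (adjusted p = 0.135 and 0.146). Library size alone moved the median log2 fold change of all genes to -0.13 over the whole process. Same-numbered samples deviated together weakly at most, with r from -0.0348 to 0.0750. The mean r was 0.031 for the same number and -0.015 for other numbers. Nearest to their own number were 6 of 9 samples, more than an even spread over 3 numbers would give. These values do not settle whether the numbers mark pairs, and the main model did not take them as pairs. With a replicate block, 1287 genes were up and 1053 down by more than 2-fold in the early phase, 556 and 367 in the late phase and 1360 and 1010 over the whole process, and among the 10 genes only the call of Atp2a2 over the whole process changed (adjusted p = 0.0483). At 18216114 to 20452144 counts per sample all 10 genes were well covered, and Orai1, with 307 counts in its lowest sample, carried the widest standard errors.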
